A study of Homo sapiens with 6 samples.

Results

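The ISG15 conjugation system is represented here by 6 genes, which were matched by symbol, with no measured value in the rule, although earlier results of these data were known: the modifier ISG15, its activating enzyme (E1) UBA7, its conjugating enzyme (E2) UBE2L6, its ligase (E3) HERC5, the related ligase gene HERC6, and the protease USP18. Each of the 6 symbols was matched by 1 row among the 29889 genes of the deposited count table and by 1 row among the 29687 genes of the FPKM table. RNA was taken from A549, a human lung adenocarcinoma cell line, after transient transfection with a plasmid carrying CELF6 (CELF6-OE, 3 libraries) or with the empty plasmid (Control, 3 libraries). Cells were harvested 48 h after transfection. CELF6 is an RNA-binding protein of the CELF family. According to the methods the vector was pIRES-hrGFP-1a and the reagent a Lipofectamine lipid, so both groups were exposed to plasmid and reagent, and no group here was untransfected. Uptake of the plasmid was not measured in these files. The comparison asks how the RNA of these genes differed when CELF6 was over-expressed.

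ISG15 is a small protein built of ubiquitin-like domains, and it is joined to other proteins in a process called ISGylation. UBA7 activates ISG15, UBE2L6 accepts it from UBA7, HERC5 transfers it to targets, often on newly made proteins, and USP18 removes it again. In human cells HERC5 is the main ISG15 ligase, whereas in mouse Herc6 has that role. USP18 also restrains signaling at the type I interferon receptor by binding its IFNAR2 subunit. Interferon induces the genes of this system in most cell types through the factor ISGF3, which binds a DNA element called the interferon-stimulated response element (ISRE).

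The members lie on 5 chromosomes of GRCh38 (GENCODE v44). ISG15 spans chr1:1001138-1014540 on the plus strand, and its canonical transcript has 2 exons. UBA7 spans chr3:49805209-49813953 on the minus strand with 24 exons, and UBE2L6 spans chr11:57551656-57568284 on the minus strand with 4 exons. USP18 spans chr22:18150118-18177397 on the plus strand with 11 exons. HERC6 (chr4:88378739-88443097) and HERC5 (chr4:88457119-88506163) are neighbours on the plus strand of chromosome 4 and have 23 exons each.

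RefSeq promoter windows (GRCh38.p14, from 250 bases before to 50 bases after a gene start) were found for 4 of the 6 members, ISG15, HERC5, HERC6 and UBE2L6, the last with 2 windows. The ISRE core GAAANNGAA was searched on both strands, where matches may overlap. ISG15 held 3 overlapping matches on its own strand, and HERC5 held 3 on the opposite strand, of which 2 overlap. HERC6 held 0 matches, and both windows of UBE2L6 held 0. Of all 35116 windows of the same length, 8.11% held the core at least once and 0.0883% held it 3 times or more. The stretch from 150 to 51 bases before the start is printed 5′ to 3′ for all 4 members, so that genes with and without the core can be compared. ISG15, HERC5 and UBE2L6 were called lower in the counts below and HERC6 was not. Both UBE2L6 windows lie inside the gene span given above, so the bases before its annotated start were not searched. UBA7 and USP18 had no window, and a link between matches and calls was not tested. Capitals mark the matches, which on the opposite strand read as the reverse complement. The stretches of ISG15, HERC5 and HERC6 lie at chr1:1013347-1013446, chr4:88456969-88457068 and chr4:88378702-88378801 on the plus strand. Those of UBE2L6 lie at chr11:57567986-57568085 and chr11:57567723-57567822 and are printed on the minus strand, in this order.
ISG15: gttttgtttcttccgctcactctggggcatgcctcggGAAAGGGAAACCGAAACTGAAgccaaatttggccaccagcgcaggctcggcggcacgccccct
HERC5: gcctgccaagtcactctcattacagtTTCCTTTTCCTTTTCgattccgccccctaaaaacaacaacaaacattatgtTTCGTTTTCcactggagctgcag
HERC6: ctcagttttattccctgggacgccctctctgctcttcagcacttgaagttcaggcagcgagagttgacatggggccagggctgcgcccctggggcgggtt
UBE2L6: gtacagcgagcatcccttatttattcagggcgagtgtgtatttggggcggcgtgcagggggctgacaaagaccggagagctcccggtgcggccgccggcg
UBE2L6: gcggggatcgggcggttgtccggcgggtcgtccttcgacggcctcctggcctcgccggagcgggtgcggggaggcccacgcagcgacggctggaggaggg
A match describes these letters only, and no binding was measured.

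Between 33748328 and 37920700 counts per library fell on genes. CELF6 was listed at an FPKM of 270.1, 295 and 172 in CELF6-OE replicates 1 to 3 and had 0 counts in each Control library. The epithelial and A549 markers KRT8, KRT18, KRT7, KRT19, AKR1B10, AKR1C2 and NQO1 had FPKM between 35.9 and 2609, and none of these 7 was called. For 7 listed markers of leukocytes, endothelium and fibroblasts the summed FPKM ranged from 3.41 to 4.08 over the Control libraries and from 3.54 to 4.82 over the CELF6-OE libraries. Most of that sum was CD14 (3.02 to 4.53), while PTPRC, COL3A1 and DCN reached at most 0.01. The endothelial marker PECAM1 was called, at an FPKM of 0.01 to 0.06, and its part in the results was not tested. In the test of 15847 genes, a gene was called at a Benjamini-Hochberg adjusted p under 0.05 with a fold change of at least 1.5 in edgeR's quasi-likelihood test. Counts at an unadjusted p under 0.05 are given below without the share of all genes at that p. Such counts therefore have no background here.

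Of the 6 members, 5 were called lower in CELF6-OE and 0 higher, against a background of 5.82% of all genes called lower and 1.35% called higher. UBA7 fell most, followed by UBE2L6, ISG15, HERC5 and USP18, and HERC6 was not called. No member had an unadjusted p under 0.05 in the higher direction, and DESeq2 also called 0 higher. The median log2 fold change of the members was -1.29, beside 0.01 over all genes tested. Every CELF6-OE library lay below every Control library for all 6 members, which was so for 20.0% of the genes tested. In bulk RNA, fewer cells that express a gene and less of its RNA per cell cannot be told apart.

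**Figure D1:**
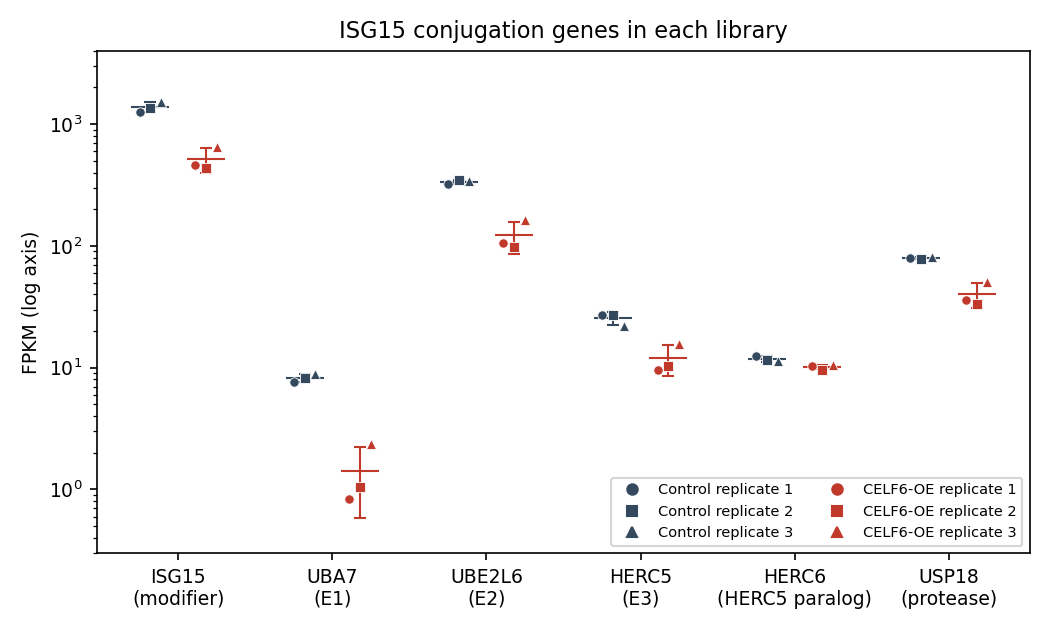
FPKM (log axis) of the 6 genes in each library; symbols are replicates, horizontal marks are group means and bars are the SD (n = 3). CELF6-OE libraries (red) lie below Control libraries (dark) for each gene, with the widest gap for UBA7 and the narrowest for HERC6.

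ISG15, the modifier, was among the most abundant RNAs of the Control cells, where its mean FPKM ranked 53 among 29687 genes. Its FPKM was 1262, 1367 and 1532 in Control replicates 1 to 3 and 460.5, 436 and 653 in CELF6-OE replicates 1 to 3. Even the highest CELF6-OE library had less than the lowest Control library, and the mean still ranked 133 in CELF6-OE. The means were 1387 ± 136 and 517 ± 119 (SD, n = 3 each). ISG15 fell 2.75-fold, with a log2 fold change of -1.46 (standard error 0.14) and an adjusted p of 6.39e-05, at most 0.000968 over the 18 alternative fits.

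UBA7, the only E1 known for ISG15, was the least abundant member in both groups. Its FPKM was 7.7, 8.2 and 8.83 in Control and 0.83, 1.05 and 2.35 in CELF6-OE, from 962, 1066 and 1149 counts and from 99, 128 and 274 counts. The CELF6-OE libraries thus differed more among themselves than did the Control libraries, and replicate 3 stood above the other two. The fall was 6.0-fold, the largest among the members (log2 fold change -2.58, standard error 0.28, adjusted p = 0.000108, at most 0.00566 over the alternative fits). Without CELF6-OE replicate 3 it was 9.02-fold.

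UBE2L6, the E2, was the next most abundant member after ISG15. Its FPKM was 319, 345 and 341 in Control and 105, 98.5 and 163 in CELF6-OE. The Control libraries were close to each other (335 ± 13.9, SD, n = 3), and the CELF6-OE libraries had a mean of 122 ± 35.7. UBE2L6 fell 2.8-fold (log2 fold change -1.49, standard error 0.16, adjusted p = 0.000106, at most 0.00339 over the alternative fits).

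HERC5, the ligase that carries a HECT domain and an RCC1-like domain, had FPKM of 27.2, 27.2 and 22.1 in Control and 9.61, 10.4 and 15.7 in CELF6-OE. Control replicate 3 was the lowest Control library, and CELF6-OE replicate 3 came closest to it. HERC5 fell 2.19-fold (log2 fold change -1.13, standard error 0.15, adjusted p = 0.000588, at most 0.00668 over the alternative fits).

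HERC6, its neighbour and paralog, had FPKM of 12.5, 11.6 and 11.2 in Control and 10.3, 9.62 and 10.5 in CELF6-OE. The groups were next to each other without overlap. The difference was 1.19-fold (log2 fold change -0.25, standard error 0.068), under the fold change threshold. Its adjusted p was 0.0283, and it was under 0.05 in 10 of the 18 alternative fits and reached 0.128 at most, so it is given by its values only. In Control the FPKM of HERC5 was 2.17, 2.34 and 1.97 times that of HERC6. In CELF6-OE it was 0.937, 1.08 and 1.5 times that of HERC6, below every Control value, a comparison made after the values had been seen.

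USP18, the protease, had FPKM of 79.4, 77.9 and 80.8 in Control and 36.1, 33.6 and 50.5 in CELF6-OE. Control libraries differed little (79.4 ± 1.45, SD, n = 3), and the CELF6-OE libraries (40.1 ± 9.13) all lay well below them. USP18 fell 2.02-fold (log2 fold change -1.02, standard error 0.13, adjusted p = 0.000285, at most 0.00319 over the alternative fits). USP41, a near-identical copy with which USP18 may share reads, had at most 2 counts in any library and was not tested. For each member, a two-sided exact permutation test of FPKM gave p = 0.1, which 6 libraries in groups of 3 cannot go below.

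The gene lengths used to compute FPKM, as implied by the counts and FPKM, were nearly constant over the libraries. They do not measure transcript structure. For ISG15 they lay between 979 and 986 bases, for UBA7 between 3428 and 3455 bases and for HERC5 between 3736 and 3761 bases. Their CELF6-OE means were 100.4% to 100.6% of the Control means over the 6 members, so the FPKM and the counts carry the same differences between the groups.

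In the order of mean FPKM, both groups gave ISG15, UBE2L6, USP18, HERC5, HERC6 and UBA7. In Control no 2 neighbours of this order overlapped, and the closest were HERC6 and UBA7, whose means differed 1.43-fold. In CELF6-OE HERC5 and HERC6 overlapped (9.61 to 15.7 against 9.62 to 10.5), while the gap between HERC6 and UBA7 was 7.18-fold. UBA7, the E1, was thus further below its neighbour in this order than in Control.

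CELF6-OE replicate 3, whose CELF6 FPKM was 0.61 times the mean of replicates 1 and 2, was the highest CELF6-OE library for all 6 members. Its FPKM was 2.50 times the mean of replicates 1 and 2 for UBA7, 1.61 times for UBE2L6, 1.58 times for HERC5, 1.46 times for ISG15, 1.45 times for USP18 and 1.06 times for HERC6. Replicate 3 was also the highest CELF6-OE library in CPM (counts scaled to the library size after TMM normalization) for 70.7% of the 922 genes called lower, with a median ratio of 1.23 among them, and for 32.5% of all genes tested. The part of the CELF6 level in these values was not tested. Without this library the members called lower were 5 of 6 as well, and the falls were 3.18-fold for ISG15, 3.38-fold for UBE2L6, 2.61-fold for HERC5 and 2.33-fold for USP18.

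**Figure D2:**
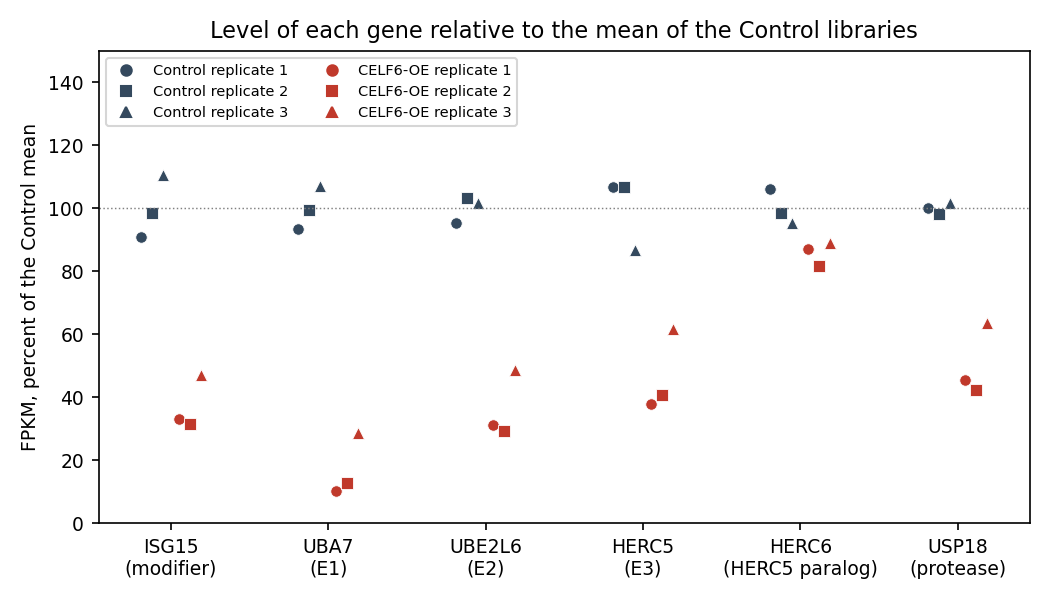
FPKM of each library as a percentage of the Control mean of the same gene (dotted line: 100%). UBA7 kept 10.1% to 28.5% in CELF6-OE, ISG15 31.4% to 47.1%, UBE2L6 29.4% to 48.7%, HERC5 37.7% to 61.7%, USP18 42.3% to 63.6% and HERC6 81.6% to 89.0%; replicate 3 (triangles) is the highest CELF6-OE library for each.

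The ratio of ISG15 to each of the other 5 genes was compared within libraries, which does not depend on how the libraries are scaled. Among the 5 ratios, that to UBE2L6 differed least between the groups. The FPKM of ISG15 was 3.95, 3.96 and 4.495 times that of UBE2L6 in Control and 4.39, 4.43 and 4.003 times in CELF6-OE. The groups overlapped, and the difference of the mean log2 ratios was 0.05 (two-sided exact permutation test, p = 0.8, adjusted p = 0.8 over the 5 ratios).

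The ratio of ISG15 to UBA7 was 164, 167 and 173 in Control and 555, 415 and 278 in CELF6-OE. All CELF6-OE libraries were above all Control libraries, and the difference of the mean log2 ratios was 1.25. Against USP18 the ratio was 15.9, 17.6 and 19.0 in Control and 12.8, 13 and 12.9 in CELF6-OE, a difference of -0.43 without overlap. Within CELF6-OE this ratio hardly varied (SD 0.014 on the log2 scale, n = 3), although ISG15 itself ranged from 436 to 653. In Control the SD of this ratio was 0.13. The other ratios to ISG15 had SDs of 0.08 to 0.50 in CELF6-OE, and the value of 0.014 was singled out after the values had been seen. Against HERC6 the difference was -1.22 without overlap, and against HERC5 it was -0.32 with overlapping groups. The exact permutation p was 0.1 for UBA7, HERC6 and USP18, the smallest possible, and 0.2 for HERC5, and the adjusted p was 0.167 and 0.25 over the 5 ratios. This test cannot pass a threshold of 0.05 with 3 libraries per group. Without Control replicate 3, the difference was -0.14 for HERC5 and 0.11 for UBE2L6, and with any 1 library left out that for UBE2L6 ranged from 0.02 to 0.11.

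**Figure D3:**
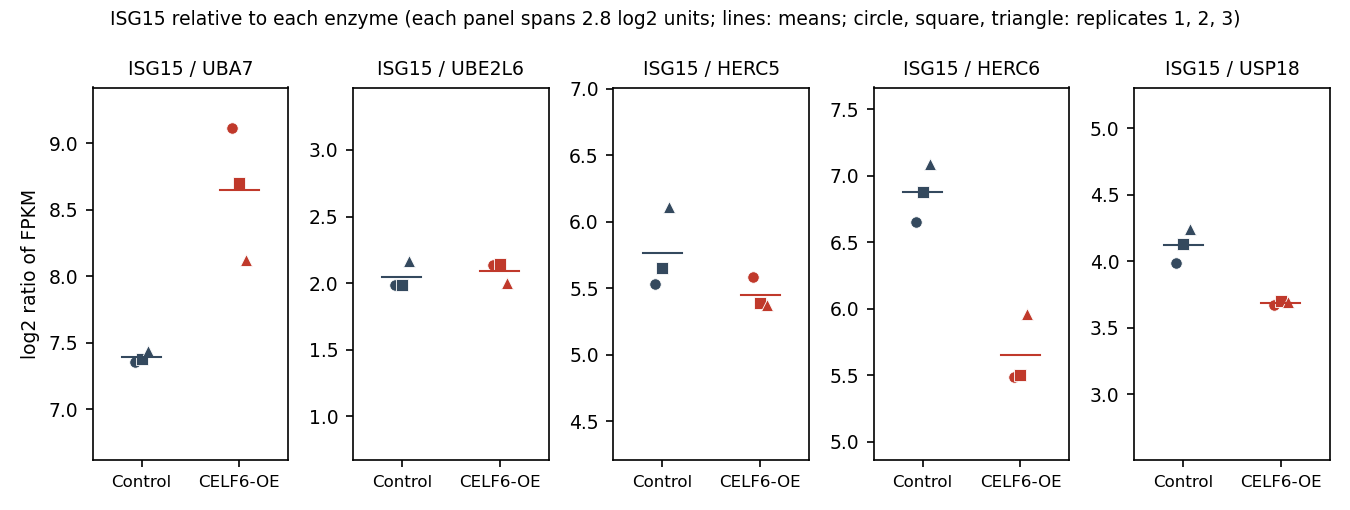
Log2 ratio of the FPKM of ISG15 to each of the other genes in each library (lines: group means; circle, square and triangle: replicates 1, 2 and 3), with panels of equal span. The ratio to UBA7 is higher in CELF6-OE by 1.25, the ratios to HERC6 and USP18 are lower by 1.22 and 0.43 (differences 1.25, -1.22 and -0.43), and those to UBE2L6 and HERC5 overlap.

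The nearest paralogs of the members were compared next, since they act mainly with ubiquitin. Of the 8 genes, 7 were tested, and 0 were called in either direction by edgeR or by DESeq2. Over all genes tested, 5.82% were called lower and 1.35% higher, so 0 of 7 lies near this background. At an unadjusted p under 0.05 there were 0 lower and 1 higher, which was HERC2. UBE2L3, the paralog of UBE2L6, had a mean FPKM of 56.6 ± 1.08 in CELF6-OE and 55.4 ± 0.19 in Control (log2 fold change 0.0004, standard error 0.057). UBA1, the main ubiquitin E1, had 73.8 ± 1.54 and 70.3 ± 3.07, and UBA6 had 1.92 ± 0.19 and 1.82 ± 0.41 (SD, n = 3 each). HERC1, HERC2, HERC3 and HERC4 had log2 fold changes of 0.17, 0.27, 0.27 and 0.17, with adjusted p of 0.335, 0.0459, 0.262 and 0.216 in edgeR's quasi-likelihood test.

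Other enzymes reported to act on ISG15 were not called either, 0 of 9 in each direction, and 0 were called by DESeq2. This lies near the background of 5.82% of all genes called lower and 1.35% called higher. At an unadjusted p under 0.05, 4 were higher and 0 lower. TRIM25, a ligase of the RIG-I pathway that has been reported to ligate ISG15, had a mean FPKM of 36.8 ± 1.17 in CELF6-OE and 39.3 ± 0.58 in Control (log2 fold change -0.13, standard error 0.060). ARIH1, another reported ligase, had 2.42 ± 0.11 and 2.42 ± 0.20. The median log2 fold change of the 9 genes was 0.13.

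**Figure D4:**
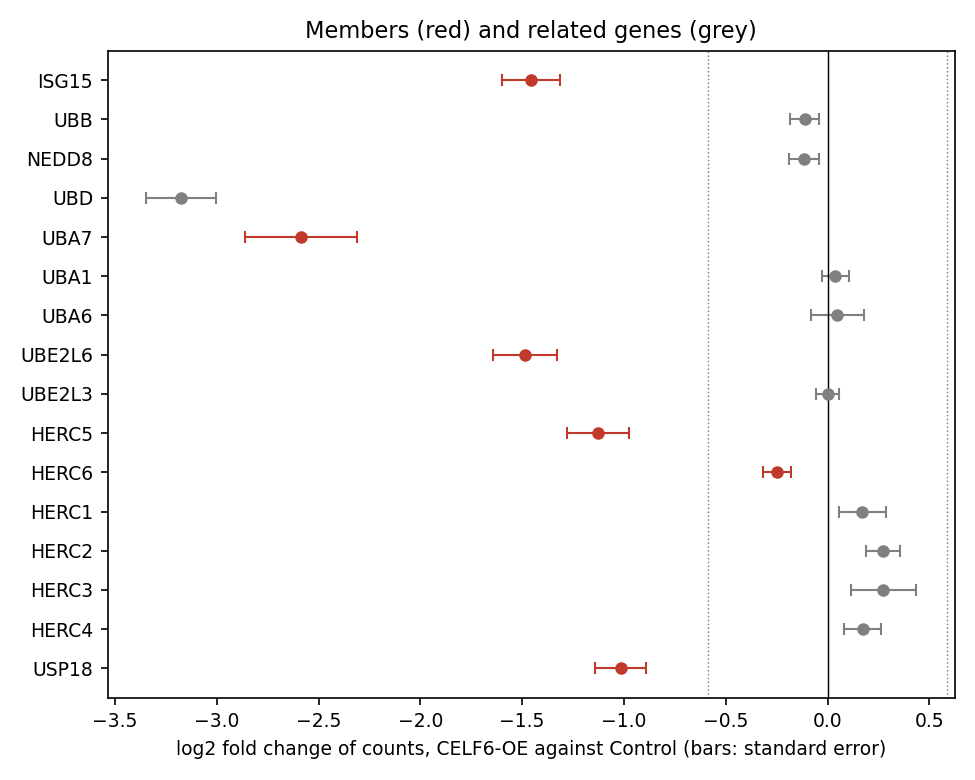
Log2 fold change of counts in CELF6-OE against Control with its standard error, for the 6 members (red) and related genes (grey); dotted lines mark a fold change of 1.5 in each direction. ISG15, UBA7, UBE2L6, HERC5 and USP18 lie left of the dotted line, HERC6 at -0.25 lies inside it, and of the grey genes shown UBD alone lies outside.

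Among 21 genes for other ubiquitin-like modifiers and their E1 enzymes, 1 was called lower and 0 higher (1 and 0 by DESeq2, with 1 higher at an unadjusted p under 0.05), a share of 4.76% beside the background of 5.82%. The gene called was UBD, which encodes FAT10, another modifier with ubiquitin-like domains that cytokines induce. Its FPKM was 13.5, 16.9 and 14.6 in Control and 1.5, 1.39 and 2.21 in CELF6-OE, and the groups were far apart. UBD fell by 3.18 on the log2 scale (standard error 0.17, adjusted p = 2.56e-06 in edgeR's quasi-likelihood test). The ubiquitin gene UBB, at a higher FPKM than ISG15 in CELF6-OE (867 against 517) and a lower one in Control (917 against 1387), was at -0.11 on the same scale with an adjusted p of 0.297 in edgeR's quasi-likelihood test. NEDD8 was at -0.12. Both genes were named after their values had been seen.

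Of the ubiquitin E2 family other than UBE2L6, 32 of 34 genes were tested and 0 were called by edgeR or DESeq2, with 1 lower and 7 higher at an unadjusted p under 0.05. For this family and the next, the background is 5.82% of all genes called lower and 1.35% called higher. The share of all genes at an unadjusted p under 0.05 is not given here. Log2 fold changes of the E2 genes lay between -0.22 and 0.31. Of the genes other than USP18 whose symbol is USP with a number, which are ubiquitin-specific proteases apart from USP6NL, 47 of 50 were tested, 0 were called lower and 1 was called higher (0 and 1 by DESeq2), with 2 lower and 14 higher at an unadjusted p under 0.05. The gene called was USP53, which had FPKM of 0.7, 0.51 and 0.42 in Control and 0.79, 0.9 and 0.93 in CELF6-OE (log2 fold change 0.66, standard error 0.16, adjusted p = 0.0182, under 0.05 in 13 of 16 alternative fits). Some of these genes also stand among the 9 reported ISG15 enzymes. The median log2 fold changes of the E2 and USP genes were 0.09 and 0.13, whereas the members had -1.29.

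**Figure D5:**
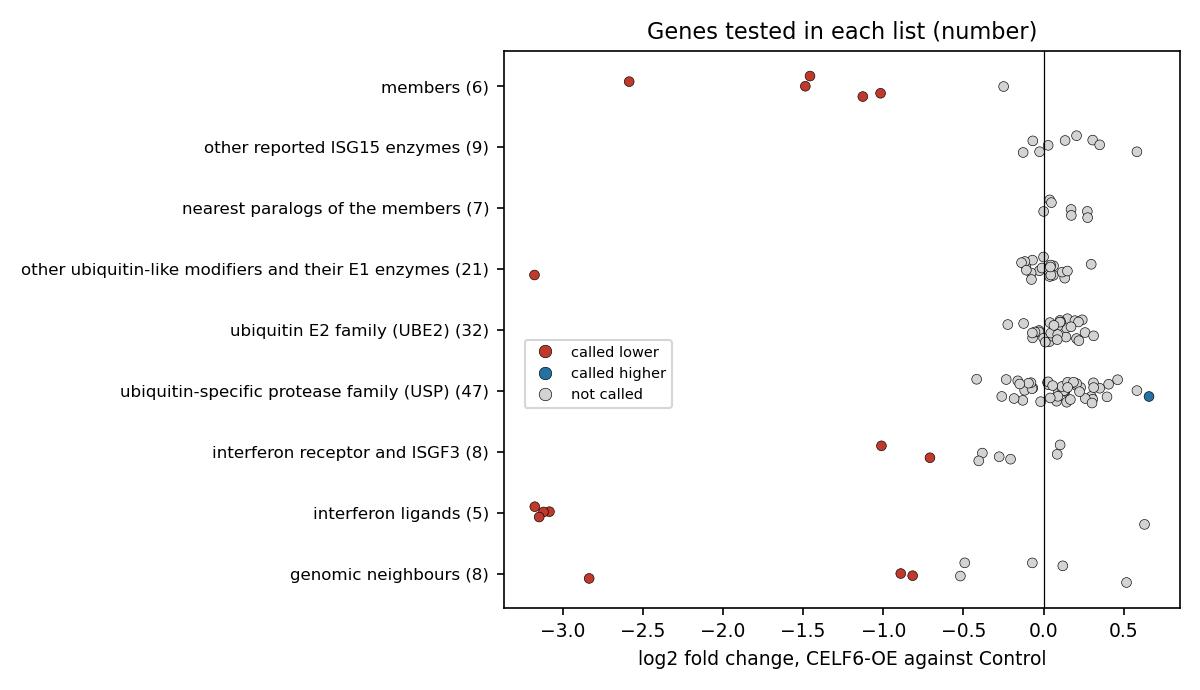
Log2 fold change of every tested gene in the 6 members and in 8 related lists (number tested in parentheses), red where called lower, blue where called higher and grey where not called; vertical scatter within a row has no meaning, and the protease row also holds USP6NL. Members and interferon ligands lie mostly left of -1, and the ubiquitin families cluster near 0.

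Genes of the interferon receptors, of receptor kinases and of ISGF3, taken as 1 list, had smaller differences than the members in the median. Of 9 genes, 8 were tested, with a median of -0.33. Of these, 2 were called lower and 0 higher (2 and 0 by DESeq2), a share called lower of 25.0% beside the background of 5.82%. At an unadjusted p under 0.05 there were 6 lower and 0 higher, with no share of all genes at that p to set beside them. STAT2, a subunit of ISGF3, had FPKM of 13.6, 14.1 and 12.8 in Control and 6.02, 5.61 and 8.88 in CELF6-OE. It fell by 1.01 on the log2 scale (standard error 0.14, adjusted p = 0.000686), about as much as USP18, and replicate 3 was again the highest CELF6-OE library. IFNAR2, the receptor subunit that USP18 binds, had 5.87, 5.97 and 6.1 in Control and 4.82, 5.25 and 5.06 in CELF6-OE (log2 fold change -0.28, standard error 0.075, adjusted p = 0.027, under the fold change threshold). IRF9, the DNA-binding subunit of ISGF3, was listed with at most 2 counts per library and was not tested. A gene that overlaps it on the same strand, ENSG00000259529, took 3116 to 3994 counts, so the low counts of IRF9 give no level.

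The interferon ligands came next. Of 13 listed genes, 5 were tested, 4 were called lower and 0 higher (4 and 0 by DESeq2, and 0 higher at an unadjusted p under 0.05). The share called lower was 80.0% beside the background of 5.82%. IFNB1 had FPKM of 6.33, 6.82 and 5.31 in Control and 0.35, 1.13 and 0.73 in CELF6-OE. Unlike the members it was not highest in CELF6-OE replicate 3, at 11, 36 and 22 counts in CELF6-OE replicates 1 to 3. IFNL1, which encodes a type III interferon, had 17.2, 18 and 20.9 in Control and 1.9, 2.2 and 2.25 in CELF6-OE. IFNL2 and IFNL3, near-identical copies, were the other 2. IFNL2 had 15.3, 16.9 and 18.2 in Control and 1.27, 2.16 and 2.5 in CELF6-OE. IFNL3 had 13.6, 17.7 and 18.2 in Control and 0.96, 1.57 and 3.2 in CELF6-OE. Like the members, IFNL2 and IFNL3 were highest in CELF6-OE replicate 3, which was so in CPM for 70.7% of all genes called lower. For IFNL1, CELF6-OE replicates 2 and 3 were close, at 70 and 68 counts. The part of the ligands in the members' levels was not tested.

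The protein-coding genes next to the members on either side were 10, of which 8 were tested. Of these, 3 were called lower and 0 higher (3 and 0 by DESeq2), a share called lower of 37.5% beside the background of 5.82%. At an unadjusted p under 0.05 there were 4 lower and 0 higher. HES4, 966 bases from the annotated span of ISG15, had FPKM of 28.8, 32.8 and 36.2 in Control and 15.8, 17.8 and 20.4 in CELF6-OE (log2 fold change -0.89, standard error 0.12, adjusted p = 0.000418 in edgeR's quasi-likelihood test). The ISG15 promoter window searched above (chr1:1013247-1013546) lies inside that span, farther from HES4. SERPING1, a complement inhibitor 29103 bases from UBE2L6, fell by 2.83 on the log2 scale (standard error 0.20). PPM1K, on the other side of HERC6 from HERC5, had FPKM of 0.86, 0.82 and 0.64 in Control and 0.42, 0.37 and 0.56 in CELF6-OE. PPM1K fell by 0.82 on the log2 scale (standard error 0.16). AGRN, on the other side of ISG15 from HES4, was under the fold change threshold, and its groups did not overlap. Its log2 fold change was -0.49 (standard error 0.087, adjusted p = 0.00292 in edgeR's quasi-likelihood test). PYURF, beyond HERC5, had a log2 fold change of 0.12 with an adjusted p of 0.265, and the neighbours of UBA7 and USP18 that were tested were not called. Of the annotated genes that overlap a member, the one in the count table (ENSG00000224969, opposite to ISG15) had at most 2 counts in a library, and the strand setting of the counting is not given in the sources used here.

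The genes most like ISG15 were those with the smallest root mean square difference of log2 CPM, each gene being centred on its mean over the 6 libraries, among 15846 other genes. They were PARP10, LY6E, ADGRE1, CD68 and LGALS3BP, at 0.06, 0.06, 0.07, 0.07 and 0.07 log2 units. Among the members UBE2L6 was nearest to ISG15, at 0.08, and UBA7 was farthest, at 0.68. The nearest gene was BATF2 for UBE2L6 (0.03), APOL2 for USP18 (0.02), TMEM27 for HERC5 (0.07), PLEKHA4 for UBA7 (0.11) and RAB13 for HERC6 (0.02). The groups set most of each pattern, so these distances describe the 6 libraries and carry no p.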

How the data were processed

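Polyadenylated RNA of A549 cells was sequenced from 3 biological replicates per group. The authors removed adaptors and low-quality bases (FASTX-Toolkit), placed the reads on GRCh38 (TopHat2) and counted, per gene, those with a single location. Which program counted, whether it used strand, and which annotation it read are not given in the sources used here. The deposited counts are whole numbers without normalization, and the deposited FPKM values were rounded by the authors. Groups and replicate numbers came from the sample labels.

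Counts were scaled with TMM and tested with edgeR 4.0.16 (R 4.3.3, quasi-likelihood, Benjamini-Hochberg over all genes tested) for the 15847 genes kept by filterByExpr (minimum count 10), where the prior degrees of freedom were 7.15. Standard errors are the log2 fold change divided by the square root of F. All 6 members passed the filter. Alternatives used DESeq2 1.42.0, limma 3.58.1 on counts and on log2 FPKM with pseudocounts of 1 and 0.1, other scalings and filters, and left out each library in turn. The members, lists and rules were chosen with earlier results of these data known. Named genes were the members, CELF6, some paralogs, ligases and interferon genes by name, called genes of each list (up to 4 by p) and the nearest genes by pattern; 1 gene under this rule is not reported here. The procedure was tested on simulated counts whose spread depended on the mean count only, so gene-specific spread was not covered. Total counts of 33748328 to 37920700 set the precision of low genes. No pair of replicates agreed within sampling noise (chi-square per degree of freedom 7.67 to 29.3).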

Additional observations from a re-analysis of the deposited data

How the results depend on the processing

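Of 239 values recomputed for 23 results, 221 kept their direction and their side of the threshold or stayed within 1.5 times the count, 8 were weaker, 10 counts moved and 0 reversed. ISG15, UBA7, UBE2L6, HERC5 and USP18 had an adjusted p under 0.05 in all 18 alternative fits, with 5 members lower and 0 higher in each fit. The log2 fold change of HERC6 was -0.21 with the library size only, -0.22 and -0.20 with limma on log2(FPKM + 0.1) and log2(FPKM + 1), and -0.28 to -0.21 with 1 library left out, with adjusted p of 0.0596, 0.0540, 0.0538 and 0.0159 to 0.128, so it was no longer past 0.05 in all but 2 of these. The replicate block gave -0.25 for HERC6 with an adjusted p of 0.0648 and changed no other call among the members, with 921 genes lower and 201 higher. The labels give same-numbered libraries only a shared number. The correlations of their deviations were -0.0113, -0.0212 and -0.0722. With deviations centred on means of 3 libraries, these values cannot decide whether such libraries were prepared together. Over all genes, 922 lower and 214 higher became 475 and 64 at a fold change of 2, 518 and 130 with limma on log2(FPKM + 0.1), and 397 and 60 on log2(FPKM + 1). The limma fits on FPKM tested a different set, the genes with an FPKM of at least 1 in at least 3 libraries. Their counts thus differ in method and in genes tested. A mean count of at least 50 left 141 higher. Leaving out 1 library gave 672 to 989 lower and 107 to 371 higher, with 107 without CELF6-OE replicate 2, 115 without Control replicate 2 and 371 without Control replicate 1. The cause was not tested. Low counts limit UBA7 most, at 99 to 274 counts in CELF6-OE.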
